A study of Homo sapiens with 9 samples.

Results

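Listed peaks were examined at 9 promoters whose genes are known for G-quadruplexes: KIT, VEGFA, BCL2, TERT, HIF1A, SRC, HRAS, RB1 and MYB. A row of a peak list belonged to a promoter when any part of it lay within 2 kb of the gene's start site in the human genome build hg19, and 13 of the 27108 rows in the 3 lists did so. The label for the set calls these oncogenes, but RB1 is a tumour suppressor gene. The data are CUT&Tag profiles of A549, a human lung adenocarcinoma line. CUT&Tag uses an antibody to bring a transposase to its target in permeabilised cells, so sequenced fragments mark where the antibody bound. In the group named HA-BAZ2B, an antibody to HA was used on cells with that epitope inserted at the 5′ end of their own BAZ2B gene. In the group named WT, wild type cells without the tag received the same antibody, so WT peaks give the background of the assay. In the group named H3K4me3, the tagged cells were, by the sample titles, profiled for histone H3 trimethylated at lysine 4. Each group had 3 samples and 1 peak list, of 7027, 2451 and 17630 rows in that order. A transfection with siRNA described in the protocols is not assigned to any sample. The sources used here do not say whether the tagged line is a single clone.

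A G-quadruplex is a folded form of single-stranded DNA or RNA in which guanines from several neighbouring G runs pair in stacked planar quartets. Sequences able to form it are common just before the start sites of genes, and folding in the promoters of several growth genes has been studied as a way to alter their transcription. BAZ2B carries a bromodomain and partners with ISWI ATPases in complexes that slide nucleosomes. The series title places BAZ2-dependent remodeling in the suppression of G-quadruplex DNA. H3K4me3 marks the nucleosomes around active or poised promoters.

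Promoter sequences came from RefSeq for the build GRCh38.p14 and are shown because G runs are what these genes are known for. KIT, BCL2, TERT, HIF1A, HRAS and MYB, 6 of the 9, had an entry at the outer start of the gene or near it. VEGFA and SRC had no entry in the set of promoter sequences used here, which does not mean that RefSeq lacks them. The RB1 entry in that set begins inside the gene and was not used. The 250 bases before the RefSeq start are given 5′ to 3′ on the strand of the gene. Capitals mark each stretch of at least 4 runs of GGG (or CCC, which places GGG on the other strand) with 1 to 7 bases of any kind (N) between runs. Such stretches on the same strand were read without overlap. The KIT bases are chr4:54657707-54657956 (+), those of TERT chr5:1295069-1295318 (−), and those of HIF1A chr14:61695263-61695512 (+). MYB is shown at chr6:135181058-135181307 (+), HRAS at chr11:535577-535826 (−), and BCL2 at chr18:63319770-63320019 (−).
KIT: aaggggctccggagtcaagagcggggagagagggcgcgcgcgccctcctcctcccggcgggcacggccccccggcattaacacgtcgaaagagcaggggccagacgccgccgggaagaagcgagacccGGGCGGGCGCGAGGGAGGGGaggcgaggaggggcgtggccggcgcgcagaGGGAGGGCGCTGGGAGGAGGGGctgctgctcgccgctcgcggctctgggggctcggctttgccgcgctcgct
TERT: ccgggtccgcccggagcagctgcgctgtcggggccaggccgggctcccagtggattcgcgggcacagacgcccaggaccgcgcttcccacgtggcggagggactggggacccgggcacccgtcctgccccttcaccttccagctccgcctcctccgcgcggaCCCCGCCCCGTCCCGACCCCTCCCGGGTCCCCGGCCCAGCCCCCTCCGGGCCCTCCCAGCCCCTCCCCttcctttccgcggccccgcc
HIF1A: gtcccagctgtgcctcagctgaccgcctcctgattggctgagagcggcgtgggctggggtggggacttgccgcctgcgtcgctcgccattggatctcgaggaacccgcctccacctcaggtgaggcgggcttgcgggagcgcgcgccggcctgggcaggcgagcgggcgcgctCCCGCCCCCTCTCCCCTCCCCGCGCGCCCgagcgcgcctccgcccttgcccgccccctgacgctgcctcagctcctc
MYB: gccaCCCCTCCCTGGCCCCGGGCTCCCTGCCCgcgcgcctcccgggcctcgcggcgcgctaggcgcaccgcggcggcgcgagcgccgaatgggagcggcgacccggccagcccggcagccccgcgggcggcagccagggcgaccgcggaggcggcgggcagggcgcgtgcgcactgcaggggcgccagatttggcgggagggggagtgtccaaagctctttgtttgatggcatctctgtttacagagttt
HRAS: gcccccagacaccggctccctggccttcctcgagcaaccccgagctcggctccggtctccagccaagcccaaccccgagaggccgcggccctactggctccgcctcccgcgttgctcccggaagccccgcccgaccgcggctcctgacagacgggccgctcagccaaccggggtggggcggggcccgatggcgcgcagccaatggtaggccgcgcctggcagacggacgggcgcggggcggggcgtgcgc
BCL2: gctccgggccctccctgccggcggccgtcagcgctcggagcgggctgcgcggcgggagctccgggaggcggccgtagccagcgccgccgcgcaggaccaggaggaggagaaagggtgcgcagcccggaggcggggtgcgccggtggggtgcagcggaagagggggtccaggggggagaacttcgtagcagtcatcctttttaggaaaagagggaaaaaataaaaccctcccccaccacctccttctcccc

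Of these 6 promoters, 4 held the motif and 2, HRAS and BCL2, did not. Among all 35116 RefSeq promoter entries, 23.5% held it in the same 250 bases. KIT had 2 separate stretches with the G runs on the strand of the gene, of 20 bases (122 to 103 bases before the start) and 22 bases (72 to 51 before). TERT had a single stretch of 68 bases with 12 C runs, 88 to 21 bases before the start. In HIF1A a stretch of 29 bases lay 77 to 49 bases before the start, and in MYB one of 28 bases lay 246 to 219 before, each with 5 C runs. In TERT, HIF1A and MYB the G runs therefore stand on the strand opposite to the gene. With gaps of up to 12 bases between runs, all 6 promoters held the motif, against 35.4% of entries. All 6 were rich in G and C, at 70.0% (BCL2) to 78.8% (TERT), against a median of 58.0% over all entries. The genes were chosen as known for G-quadruplexes, and the entries were not matched for G and C. The shares are therefore descriptive and do not test the set. The BCL2 entry starts 321 bp inside the outer end of that gene, and the other 5 start at it. A match of letters does not show that a structure forms. The sequences and the peaks are on different builds and were not placed on each other.

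All 9 promoters had exactly 1 H3K4me3 peak, 3 had an HA-BAZ2B peak (HRAS, HIF1A and MYB) and 1 had a WT peak (HIF1A). Over all 17018 H3K4me3 peaks on the assembled chromosomes, 39.5% overlapped an HA-BAZ2B peak and 13.1% a WT peak, so shares of 33.3% and 11.1% of the promoters were close to the background. Each group has 1 list without values per replicate, so no test across samples could be made. The promoters are not replicates of each other. No annotation of hg19 was used here, so no such background exists for the share of promoters with H3K4me3. Peaks come from bulk cells, in which a weaker signal in every cell and a signal in fewer cells cannot be told apart.

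**Figure D1:**
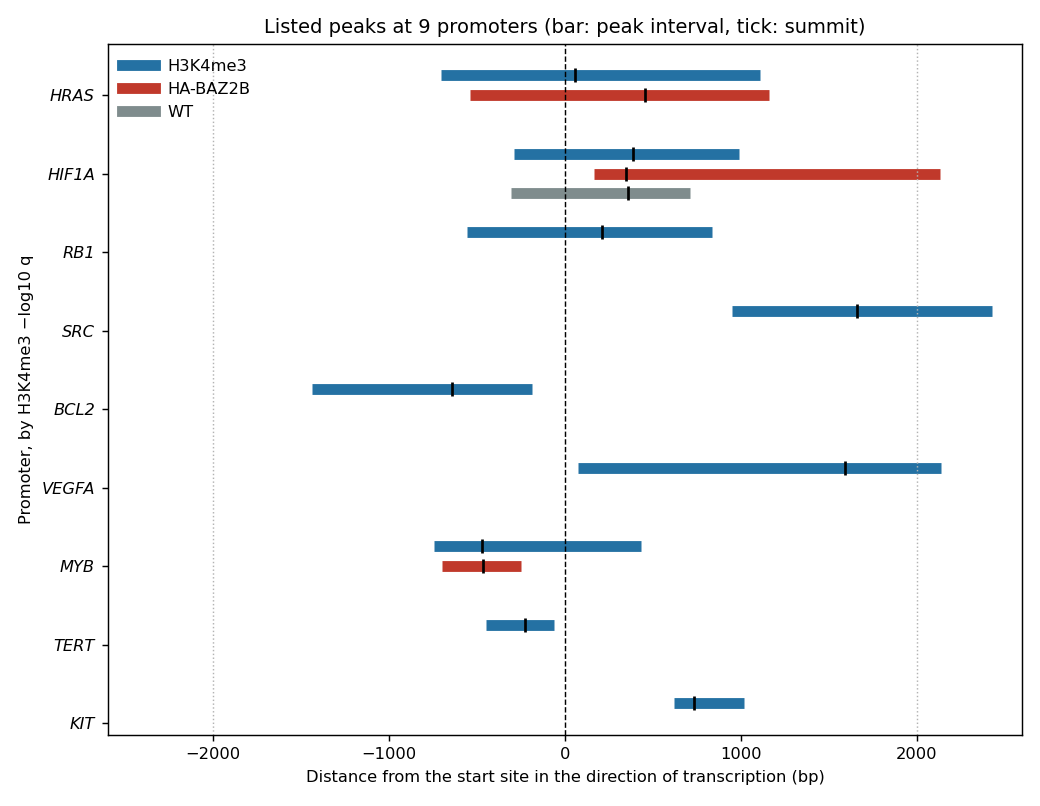
Listed peaks at the 9 promoters, with distance from the hg19 start site in bp along the direction of transcription (upstream to the left) on the x axis and promoters ordered by their H3K4me3 −log10 q on the y axis. Bars are peak intervals, black ticks are summits and dotted lines mark the 2 kb window. Blue H3K4me3 bars stand at all 9 promoters, red HA-BAZ2B bars at 3 and a grey WT bar at HIF1A, where the HA-BAZ2B bar runs past the H3K4me3 bar to 2131 bp downstream.

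VEGFA encodes a growth factor for blood vessels. Its H3K4me3 peak on chromosome 6 (43738022 to 43740081) was the widest of the 9, at 2060 bp, and began 76 bp downstream of the start site (43737946). It had the lowest fold enrichment of the 9, at 4.05, with a −log10 q of 29.1. Fold enrichment is the ratio of signal at the peak to the background that the peak caller estimated for that library, and −log10 q is the strength of evidence for the peak. Width and height thus went apart at VEGFA: 95.6% of H3K4me3 peaks were narrower, and only 3.41% had a lower fold enrichment. The summit lay 1589 bp downstream of the start site, far into the peak. With the list divided into deciles, 65.7% of the H3K4me3 peaks in the same decile by width carried an HA-BAZ2B peak, and in the same decile by −log10 q 25.4% did. VEGFA had none listed, and the nearest was 140.2 kb away.

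KIT encodes the receptor tyrosine kinase for stem cell factor, and is best known in blood, germ and pigment cells. Its H3K4me3 peak on chromosome 4 (55524715 to 55525113) was 399 bp wide with a fold enrichment of 6.73 and a −log10 q of 7.56. That −log10 q was the lowest of the 9, and only 6.00% of the H3K4me3 list lay below it. The interval did not reach the start site (55524095) and lay 620 to 1018 bp downstream of it. In that decile, the lowest by −log10 q, 8.23% of H3K4me3 peaks carried an HA-BAZ2B peak. KIT had no listed anti-HA peak, and its nearest HA-BAZ2B peak, 424.1 kb away, was the most distant among the 6 promoters without one. KIT was also the promoter with 2 motif stretches on its own strand.

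SRC encodes a membrane-bound tyrosine kinase that relays signals from receptors and adhesions. Its H3K4me3 peak on chromosome 20 (35974035 to 35975513) was 1479 bp wide with a fold enrichment of 6.91 and a −log10 q of 37.5. It lay farther from the start site used (35973088) than any other row of the set, from 947 to 2425 bp downstream, with its summit at 1659 bp. The first row outside the 2 kb window, over all promoters and lists, was an H3K4me3 peak 16.5 kb from HRAS. The nearest ends of the rows inside were thus at most 947 bp away, while the far ends of 3 rows, at SRC, VEGFA (H3K4me3) and HIF1A (HA-BAZ2B), reached past the window. SRC had no listed anti-HA peak, and the nearest HA-BAZ2B and WT peaks were 164.5 and 165.9 kb away on the lower side of the chromosome.

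HRAS encodes a small GTPase downstream of growth factor receptors. It had the highest H3K4me3 −log10 q of the 9, at 52.6, in a peak of 1817 bp (chromosome 11, 534439 to 536255) whose fold enrichment was 6.39. The HA-BAZ2B peak (534389 to 536092) was 1704 bp wide, with a fold enrichment of 6.37 and a −log10 q of 25.5, and both peaks covered the start site (535550). These intervals nearly coincided: 97.1% of the HA-BAZ2B peak lay inside the H3K4me3 peak and 91.0% of the H3K4me3 peak was covered. The summits did not coincide. They lay 456 bp (HA-BAZ2B) and 55 bp (H3K4me3) downstream of the start site, 401 bp apart, and 84.9% of matched pairs in the lists had closer summits. No WT peak was listed at HRAS, and the nearest was 28.3 kb away.

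HIF1A encodes the oxygen-regulated subunit of a transcription factor that raises VEGFA and other genes in low oxygen. It was the only promoter of the set with a peak in all 3 lists. The H3K4me3 peak on chromosome 14 (62161831 to 62163107) was 1277 bp wide, with a fold enrichment of 6.24 and a −log10 q of 51.9. The WT peak (62161810 to 62162828) was 1019 bp wide, with a fold enrichment of 7.11 and a −log10 q of 13.9, and its ends stayed within 21 bp of the H3K4me3 interval or inside it. The HA-BAZ2B peak (62162285 to 62164250) was 1966 bp wide, with a fold enrichment of 3.94 and a −log10 q of 17.6. Since untagged cells also gave a peak here, anti-HA signal at HIF1A was present without the tag. Scores are not scaled between the lists, so the fold enrichments of 7.11 and 3.94 do not compare the lines. All 3 summits fell within 41 bp of each other, 347 (HA-BAZ2B), 357 (WT) and 388 bp (H3K4me3) downstream of the start site (62162119).

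The HA-BAZ2B interval at HIF1A had an unusual shape beside its H3K4me3 partner. It began 166 bp downstream of the start site, left out the upstream part of the H3K4me3 peak, and ran 1143 bp past its downstream end, so that only 41.9% of it lay inside H3K4me3. Among 6556 HA-BAZ2B and H3K4me3 peaks matched one to one, the median share inside was 98.2%. Only 5 pairs (0.0763%), HIF1A included, had an HA-BAZ2B peak that reached more than 1 kb past its partner. The interval was 1.54 times as wide as its H3K4me3 partner, and 12 pairs had a higher ratio. It was also low for its width: the median fold enrichment in the same decile of the HA-BAZ2B list by width was 5.74, and 3.24% of those 679 peaks lay below HIF1A. Beside the WT peak its width was ordinary, with a ratio of 1.93 against a median of 1.91 over 1902 matched pairs. It ran 1422 bp past the WT peak downstream, and 13.6% of those pairs had an HA-BAZ2B peak reaching more than 1 kb past WT. Peak names carry the number of the peak in the library that the rows were taken from, and 1 H3K4me3 number between HIF1A and the next listed H3K4me3 peak, at 66.66 kb, is missing from the list. That unlisted peak could lie anywhere between them, and its part in the shape was not tested.

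MYB encodes a transcription factor of blood and other progenitor cells. Its H3K4me3 peak on chromosome 6 (135501707 to 135502884) was 1178 bp wide, with a fold enrichment of 7.92 and a −log10 q of 23.7, and covered the start site (135502453). The HA-BAZ2B peak (135501752 to 135502205) was 454 bp wide, with a fold enrichment of 6.37 and a −log10 q of 7.80, the weakest and narrowest HA-BAZ2B peak of the 3. It lay wholly inside the H3K4me3 peak, ended 248 bp upstream of the start site, and its summit (467 bp upstream) was 6 bp from that of H3K4me3 (473 bp upstream). This was the reverse of HIF1A in shape: the HA-BAZ2B peak was 0.385 times as wide as its partner, and 2.44% of pairs had a lower ratio. Of the H3K4me3 peaks in its decile by −log10 q 16.3% carried HA-BAZ2B, and in its decile by width 41.8% did. No WT peak was listed, and the nearest was 1.22 Mb away.

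**Figure D2:**
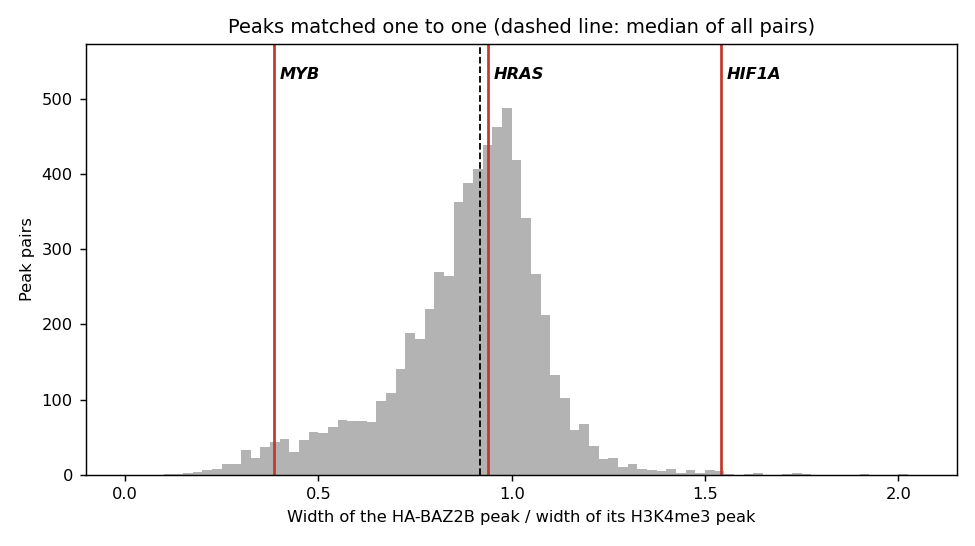
Histogram of the width of an HA-BAZ2B peak divided by the width of its H3K4me3 peak (x axis, no unit), as the number of peak pairs (y axis) over 6556 pairs matched one to one. Red lines mark MYB (0.385), HRAS (0.938) and HIF1A (1.54) and the dashed line the median of 0.918, so HRAS sits at the middle and the other 2 in opposite tails.

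BCL2 encodes an inhibitor of apoptosis. Its H3K4me3 peak on chromosome 18 (60986799 to 60988049) was 1251 bp wide, with a fold enrichment of 8.05 and a −log10 q of 30.7. It lay wholly upstream of the start site used (60986613), from 186 to 1436 bp away, with the summit 642 bp upstream. These positions hold for that start site only. It was not compared with the RefSeq start of the BCL2 sequence above, which is on another build. BCL2 had the shortest distance to an HA-BAZ2B peak among the 6 promoters without one, 46.81 kb, to a peak (61033428 to 61035463) that itself lay on H3K4me3. Its nearest WT peak, in contrast, was 11.0 Mb away, the farthest of the set.

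TERT encodes the catalytic subunit of telomerase, which keeps telomeres from shortening in most cancer lines. The H3K4me3 peak at its promoter on chromosome 5 (1295223 to 1295612) was the narrowest of the 9, at 390 bp, with a fold enrichment of 6.55 and a −log10 q of 8.27. It lay 61 to 450 bp upstream of the start site (1295162), with the summit 230 bp upstream. TERT and KIT thus formed a pair of weak, narrow peaks: 3.66% and 3.97% of H3K4me3 peaks were narrower. TERT had no listed anti-HA peak, and the nearest HA-BAZ2B peak was 182.8 kb away.

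RB1 encodes a brake on entry into the cell cycle. The H3K4me3 peak of RB1 (chromosome 13, 48877323 to 48878720) covered the start site (48877883), was 1398 bp wide and had a −log10 q of 42.1, at the middle of the list with 50.0% of peaks below. Its fold enrichment of 8.49 was the highest of the 9. RB1 had no listed anti-HA peak. Of the H3K4me3 peaks in its decile by −log10 q 42.8% carried HA-BAZ2B, and in its decile by width 56.2% did. Among the 201 peaks in both deciles the share was 42.3%. The nearest HA-BAZ2B peak was 228.6 kb away.

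What the 9 H3K4me3 peaks had in common was a fold enrichment in the lower part of the list. Fold enrichment ran from 4.05 to 8.49 with a median of 6.73, and all 9 values were below the list median of 9.07. Width ran from 390 to 2060 bp with a median of 1277 bp, and 7 of 9 peaks, all but KIT and TERT, were wider than the list median of 1132 bp. Height varies with width in the list, with a median fold enrichment of 6.73 in the narrowest decile, 10.6 in the sixth and 6.27 in the widest. Within the same decile by width, HRAS alone was above the median height, KIT (49.0% of peaks below) and TERT (48.1%) were near it, and 5 promoters had between 4.64% and 11.0% below. RB1 had 37.4% below. By −log10 q, HRAS, HIF1A and RB1 were above the list median of 42.0 and the other 6 below. The intervals covered the start site used at HRAS, HIF1A, RB1 and MYB and missed it at 5 promoters, by 61 to 947 bp. All 3 HA-BAZ2B peaks were also below the median of their own list in fold enrichment (8.16) and −log10 q (28.5), while the WT peak at HIF1A was above its list's medians of 6.42 and 10.4.

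**Figure D3:**
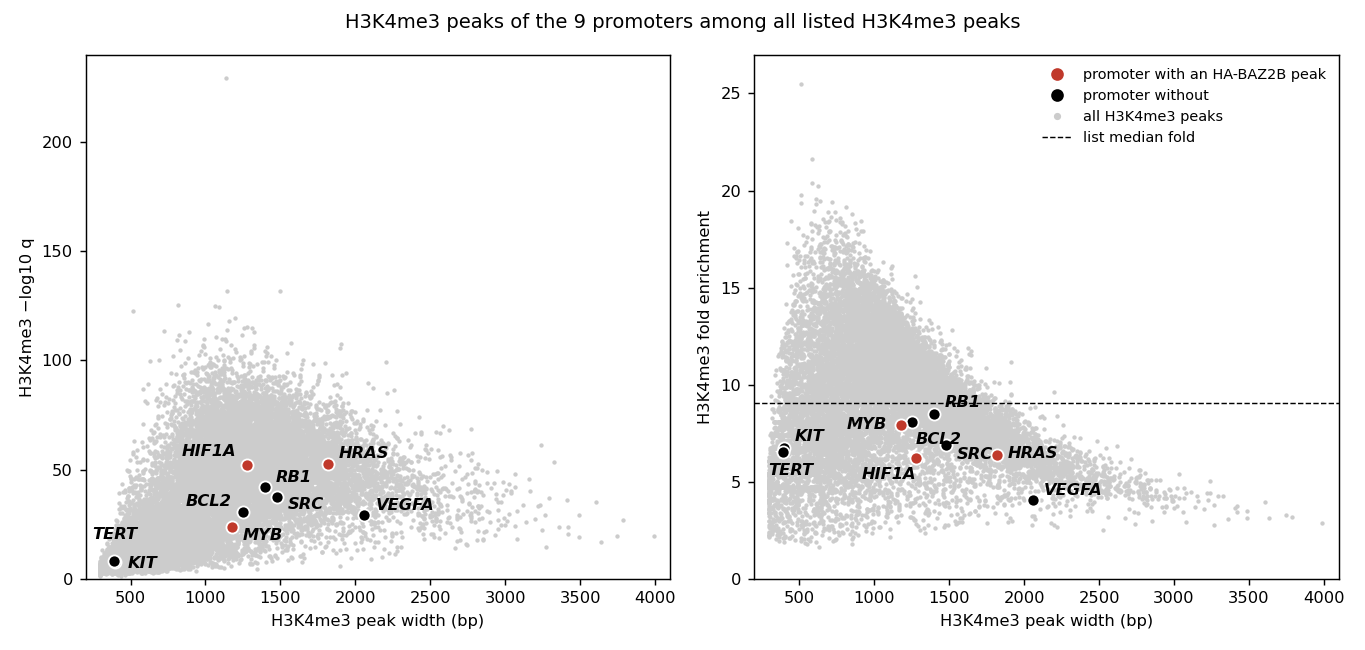
H3K4me3 −log10 q (left y axis) and fold enrichment (right y axis) against peak width in bp for all listed H3K4me3 peaks (grey) and the 9 promoters, red with and black without an HA-BAZ2B peak. All 9 promoters lie below the dashed list median of 9.07 in fold enrichment, and KIT and TERT lie together at about the same small width.

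**Figure D4:**
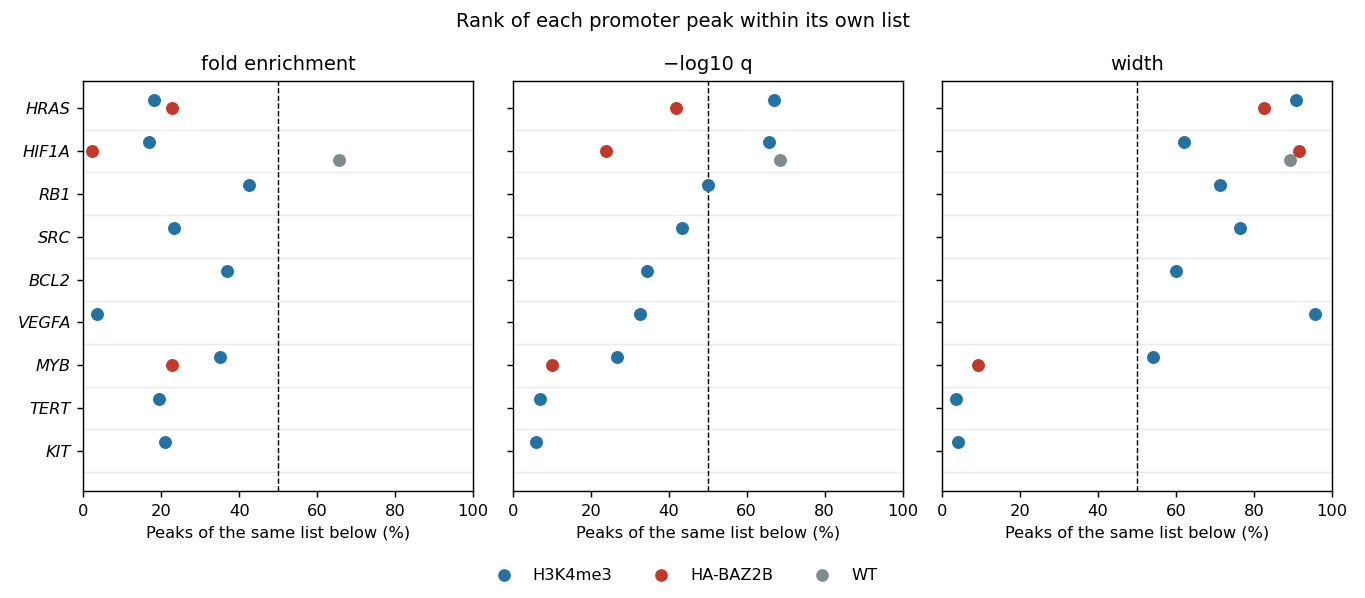
Share of peaks of the same list that lie below each promoter peak (x axis, %) in fold enrichment, −log10 q and width, for H3K4me3 (blue), HA-BAZ2B (red) and WT (grey), with promoters on the y axis ordered by H3K4me3 −log10 q. All H3K4me3 and HA-BAZ2B points are left of the middle for fold enrichment, from 2.18% (HA-BAZ2B at HIF1A) to 42.4% (H3K4me3 at RB1).

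HA-BAZ2B peaks were not confined to the promoters with the strongest H3K4me3. HRAS and HIF1A, with HA-BAZ2B peaks, were the 2 highest by H3K4me3 −log10 q, but MYB was seventh (23.7), below RB1 (42.1), SRC (37.5), BCL2 (30.7) and VEGFA (29.1), which had none. When each promoter was given the share of H3K4me3 peaks with HA-BAZ2B in its own decile by −log10 q, the mean of these shares was 29.2%, and by width it was 44.4%. The observed 33.3% stood between them. For WT the means were 8.75% and 15.2%, beside an observed 11.1%. Of the 3 promoters with HA-BAZ2B, 1 also had a WT peak, where 28.6% of all H3K4me3 peaks with HA-BAZ2B did. The sequence motif with the shorter gaps between runs was found at promoters both with and without HA-BAZ2B. Of the 4 with this motif, HIF1A and MYB had HA-BAZ2B and KIT and TERT did not. Of the 2 without it, HRAS had HA-BAZ2B and BCL2 did not. With gaps of up to 12 bases all 6 held the motif, so that setting gives no such split. The sequences were not placed on the peaks. Whether the motif goes with HA-BAZ2B was not tested over these 6 promoters.

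A promoter without a listed peak may still have had one in a single library, since only peaks seen in at least 2 replicates were listed. Gaps in the peak numbers limit this only for the library that the rows were taken from, replicate 3 for HA-BAZ2B and replicate 2 for WT. A peak called only in other libraries leaves no gap in these numbers. For all 6 promoters without an HA-BAZ2B peak, the listed HA-BAZ2B peaks on either side had unlisted numbers between them: 1 for KIT, 3 each for BCL2, TERT and SRC, 4 for RB1 and 5 for VEGFA. At KIT, at most 1 further peak of the source library thus lay anywhere in the 1.11 Mb between the flanking peaks. The same was true of WT at all 8 promoters without a WT peak, with 1 unlisted number at HRAS and up to 30 at BCL2. Such gaps were the rule. Of the 10204 H3K4me3 peaks that had no listed HA-BAZ2B peak but had one on either side on the chromosome, 95.9% lay in a gap with unlisted numbers, and for WT 95.9% of 14592 did. The lists therefore do not show whether any of the 6 promoters had an HA-BAZ2B peak that the filter removed.

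The surroundings of the promoters differed widely. Within 500 kb on either side, HRAS had 33 other H3K4me3 peaks, of which 11 carried HA-BAZ2B and 7 carried WT. VEGFA had 17 with 3 HA-BAZ2B, TERT 15 with 4, SRC 10 with 4 and HIF1A 8 with 2. RB1 had 6 others with 3 HA-BAZ2B, KIT 4 with 1, and BCL2 and MYB 3 each with 2 and 1. WT was on 2 of these peaks at TERT, on 1 each at HIF1A, SRC and RB1, and on none at the remaining promoters. Shares with HA-BAZ2B ran from 17.6% (VEGFA) to 66.7% (BCL2), beside 39.5% over all H3K4me3 peaks. MYB carried HA-BAZ2B in a sparse region and VEGFA lacked it in a fuller one. The opposite held for HRAS, which had it in the fullest region, and for KIT and BCL2, which lacked it in sparse ones. Most HA-BAZ2B peaks lay on H3K4me3, with 6556 of the 6794 on the assembled chromosomes matched one to one to an H3K4me3 peak. Most WT peaks did too, with 2210 of 2389 matched, so this placement was not particular to the tagged cells. The nearest HA-BAZ2B peak also lay on H3K4me3 at all 6 promoters without one. The distances to these nearest peaks, 46.81 to 424.1 kb from the start site, had a median of 173.7 kb. The corresponding edge-to-edge distance had a median of 88.2 kb (interquartile range 32.1 to 235 kb) over all 10289 H3K4me3 peaks without HA-BAZ2B.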

How the data were processed

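The 9 samples were grouped by title into 3 groups of 3. Per the submitters' processing notes, MACS2 2.1.4 called the peaks after alignment by Bowtie2 2.4.5, and SAMtools 1.15.1, Picard and bedtools were used, with the builds hg19 and dm6. The sources used here name no peak-calling settings and no control. Per the labels, peaks present in at least 2 replicates were kept, with rows from the largest replicate list. By the peak names, that was replicate 3 for HA-BAZ2B, 2 for WT and 1 for H3K4me3, so each printed value is from 1 library. The antibody label of H3K4me3 replicates 2 and 3 differs from their titles, which were followed. Since a row needed at least 2 replicates, every H3K4me3 row also rests on replicate 2 or 3. Fold enrichment (a ratio), −log10 q, and start, end and summit in bp were used as the authors deposited them. Read depth is unknown.

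Only rows on the assembled chromosomes were compared, with overlaps of at least 1 bp. Deciles are 10 parts of a list with nearly equal numbers of peaks. Start sites came from the definition of the set, and strands from general knowledge. Strands were checked against the RefSeq promoter entries used here for the 7 genes with an entry. Members, lists and the rule of describing all 9 promoters were chosen with earlier results of these data known. Promoter letters were searched in Python 3.11.15 (pandas 2.3.3, numpy 2.4.6). Overlap, window and motif code was tested on simulated intervals and strings. Other genes known for G-quadruplexes were not analysed here, since no annotation of hg19 was used.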

Additional observations from a re-analysis of the deposited data

How the results depend on the processing

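Alternatives moved 4 of 28 counts and values by more than 1.5 times. When the interval had to cover the start site itself, 1 promoter (HRAS) had an HA-BAZ2B peak and 4 had an H3K4me3 peak. When each list was limited to its 2389 highest peaks by −log10 q, 0 promoters had an HA-BAZ2B peak and 0 an H3K4me3 peak, because the promoter peaks are not among the strongest of those lists. That number is the whole WT list, so the WT count was fixed. Windows of 1 or 5 kb and the use of the summit left all 3 counts (3, 1 and 9) as they were. A −log10 q of at least 10 left 2 HA-BAZ2B and 7 H3K4me3 promoters, since MYB, KIT and TERT are below it in the list concerned. If 50% of the anti-HA peak had to overlap, HIF1A no longer counted as H3K4me3 with HA-BAZ2B, and with 50% of the H3K4me3 peak, MYB did not, which left 2 promoters each time. The motif with gaps of up to 12 bases, chosen after seeing the data, was found in 6 promoters in place of 4. No paired analysis was possible because each group has 1 list and no values per replicate, and for the same reason no replicate was left out. Unknown depth limits what the absence of a peak shows.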
